A study of Mus musculus with 2 samples.

Results

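The Ifitm genes encode small membrane proteins, several of them induced by interferon, and 6 of these genes were followed here in differentiated female germline stem cells (FGSCs): Ifitm1, Ifitm2, Ifitm3, Ifitm5, Ifitm6 and Ifitm10. The family was chosen by its measured counts in these 2 libraries, so the counts are given as a description without a test. The count tables held IDs that could be placed in 53146 genes, among them 5 of the 6 members. From the order in which the IDs are listed, none could be placed in Ifitm5 alone. Of the 129311 IDs listed, 9 belonged to an Ifitm gene and 3 more lay between an Ifitm gene and a neighbouring gene. The question was which member of the family held the counts.

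IFITM proteins sit in the plasma membrane and in endosomes and hinder the entry of enveloped viruses, and interferon raises Ifitm3 through response elements near its start site. In the mouse embryo Ifitm3 is known as Fragilis, a surface marker of the cells that go on to form primordial germ cells, and it is one of the germline markers commonly used for stem cells of the ovary. Ifitm1 has been linked to the homing of primordial germ cells. Ifitm5, also called Bril, is a protein of bone-forming osteoblasts. RefSeq lists Fgls among the other names of Ifitm3, fragilis3 for Ifitm2 and fragilis5 for Ifitm6, so numbered forms of the name belong to other members.

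Both libraries came from FGSCs of CD-1 female mice. Differentiation lasted 3 days, with retinoic acid (RA) at 10 µM and BMP4 at 10 ng/mL, over granulosa cells, which line the follicle around the oocyte. The medium lacked GDNF, EGF and LIF. Each library was made from a handful of cells by a Smart-seq protocol, in which polyadenylated RNA is copied to cDNA and amplified by PCR, and dUTP-containing carrier DNA was added before library construction. No second condition was analysed here, and nothing in the labels states whether the 2 libraries came from separate cultures. The labels give the stage as premeiotic interphase, and the germ cell markers read below were not limited to that stage.

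Replicate 1 was far deeper, with 1517151 counts over 15412 IDs, than replicate 2, with 12442 counts over 4259 IDs. Levels are given as counts per 1000000 counts of the library (CPM), on which scale 1 count is worth 0.659 CPM in replicate 1 and 80.4 CPM in replicate 2. The tables name a protein accession or an Ensembl transcript and no gene, and the gene of each accession was inferred from the order in which the IDs are listed. For a gene at 0 counts a one-sided limit of 3 counts was used, which is 1.98 CPM in replicate 1 and 241 CPM in replicate 2. Intervals around counts above 0 are two-sided exact (Clopper-Pearson) 95% intervals that cover counting error only, since PCR copies are not independent molecules.

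The primers of the RT-PCR assay named Fragilis show which gene that assay reads. Both primers matched exactly 1 transcript of the GENCODE annotation, that of Ifitm3, and in every other member the closest sites differed at 7 to 10 bases. The sequences are printed in the direction of each primer, with capitals at the bases where the site of another gene differs from the primer.
Fragilis forward primer, identical in Ifitm3: gttatcaccattgttagtgtcatc
closest site in Ifitm1, 8 differences: gtCGtcaTcGttgtCTgtgCcatT
closest site in Ifitm2, 9 differences: AtCTtcaGcatCCttaTGgtcatT
closest site in Ifitm6, 9 differences: CtGaAcaTcCttgCtCTGgtcatc
Fragilis reverse primer, identical in Ifitm3: aatgagtgttacacctgcgtg
closest site in Ifitm1, 7 differences: TGtgagtgtCacaTTtgcAtA
closest site in Ifitm2, 9 differences: GGtgaAGgtAacaTTtgcAtA

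The product of the primer pair spans 151 bases, from position 480 to position 630 of the 678 bases of the Ifitm3 transcript, at chr7:141009634-141009784 of GRCm38. It lies in exon 2 of 2 and runs from the coding sequence, which ends at position 536, into the 3′ untranslated region. Exon 1 ends at position 374, so the product crosses no intron. The Fragilis of this assay and the ID Q9CQW9 of the count tables are thus the same gene, Ifitm3.

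The members lie in a cluster of 69.0 kb on mouse chromosome 7, apart from Ifitm10, which lies 1.31 Mb further along. Ifitm5, Ifitm2, Ifitm1, Ifitm3 and Ifitm6 follow each other from chr7:140948958 to chr7:141017924, with Ifitm1 on the plus strand and the other four on the minus strand. Ifitm3 itself covers chr7:141009586-141010770 and Ifitm2 covers chr7:140954837-140955987. Similarity within the cluster decides how far short reads can tell the members apart. The coding sequences of Ifitm2 and Ifitm3 were identical at 75.9% of aligned positions, those of Ifitm1 and Ifitm3 at 63.5%, and those of Ifitm3 and Ifitm5 at 49.5%. The longest run of identical bases between Ifitm2 and Ifitm3 measured 69 bases, and that between Ifitm1 and Ifitm3 measured 64 bases. Both runs are printed with up to 15 bases on either side, read along the coding strand, with capitals at the bases that differ between the pair.
Ifitm3, against Ifitm2, chr7:141010430-141010528: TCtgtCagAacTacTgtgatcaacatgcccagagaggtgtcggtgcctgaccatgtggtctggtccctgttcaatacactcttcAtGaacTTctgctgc
Ifitm2, against Ifitm3, chr7:140955703-140955801: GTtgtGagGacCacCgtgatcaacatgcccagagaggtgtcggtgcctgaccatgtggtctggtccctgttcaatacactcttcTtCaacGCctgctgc
Ifitm3, against Ifitm1, chr7:141010406-141010496: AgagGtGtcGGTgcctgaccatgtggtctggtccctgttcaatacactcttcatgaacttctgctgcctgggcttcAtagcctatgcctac
Ifitm1, against Ifitm3, chr7:140968339-140968429: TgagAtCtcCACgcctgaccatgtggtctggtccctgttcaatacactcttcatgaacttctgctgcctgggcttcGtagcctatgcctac

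A read of 50 bases could come from another annotated gene at 10.0% of the positions of the Ifitm3 transcript, and a stretch of 100 bases at none of them. For Ifitm2 the shares were 48.5% at 50 bases and 34.9% at 100 bases, and 219 of the 294 shared windows of 50 bases were in Gm45717, a gene model that overlaps an Ifitm2 exon. The read length is not given in the sources used here.

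Ifitm3 held most of the counts of the family. Its only ID, Q9CQW9, had 10476 counts in replicate 1 and 5 counts in replicate 2. On the CPM scale its level was 6905 (95% interval 6774 to 7038) in replicate 1 and 402 (130 to 938) in replicate 2. Ifitm3 was the gene with the eighth highest count in replicate 1 and held 0.691% of that library. Per kilobase of exons it took rank 5, at 10184 CPM per kilobase. In replicate 2 it ranked 423 by counts, and its share of replicate 1 would have given 85.9 counts there instead of the 5 observed.

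Ifitm2, which lies beyond Ifitm1 on the same strand as Ifitm3, came next. Its ID Q99J93 had 1339 counts in replicate 1 and 2 counts in replicate 2, which were 883 CPM (836 to 931) and 161 CPM (19.5 to 581). Ifitm2 ranked 138 by counts in replicate 1 and 38 per kilobase of exons, at 1347 CPM per kilobase. The interval of replicate 2 lay below that of replicate 1, as it did for Ifitm3.

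Ifitm1 was counted at a lower level on its ID Q9D103, with 101 counts in replicate 1 and 1 count in replicate 2. These were 66.6 CPM (54.2 to 80.9) and 80.4 CPM (2.03 to 448), and the intervals of the 2 libraries overlapped. A single count in replicate 2 stood beside the 0.828 counts that its share of replicate 1 would give. Ifitm1 ranked 2330 by counts in replicate 1.

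For Ifitm5 the counts could not be assigned to 1 gene by listing order. The ID O88728 had 5 counts in replicate 1 and 0 counts in replicate 2, and by its place in the list it belongs to Ifitm5 or to the neighbouring Pgghg. The Pgghg transcript in question has 20 exonic bases that no other ID covers, against 538 for Ifitm5. A second ID in the same position, A0A1B0GT68, which could be Ifitm5 or Gm45717, was at 0 in both libraries. These 5 counts are left out of the sums for the family below. Counted as Ifitm5, they would raise the number of members with at least 3 counts over both libraries to 4.

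Ifitm6 and Ifitm10 were not detectable at this depth. Both IDs of Ifitm6, Q3SXF0 and A0A1B0GS75, were at 0 counts in replicate 1 and in replicate 2. The 4 IDs of Ifitm10, which were Q8BR26, ENSMUST00000131791.1, ENSMUST00000140032.1 and ENSMUST00000123543.1, were likewise at 0 in both libraries. A further ID, A0A1B0GT66, which could belong to Ifitm10 or to another gene, had no count either.

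**Figure D1:**
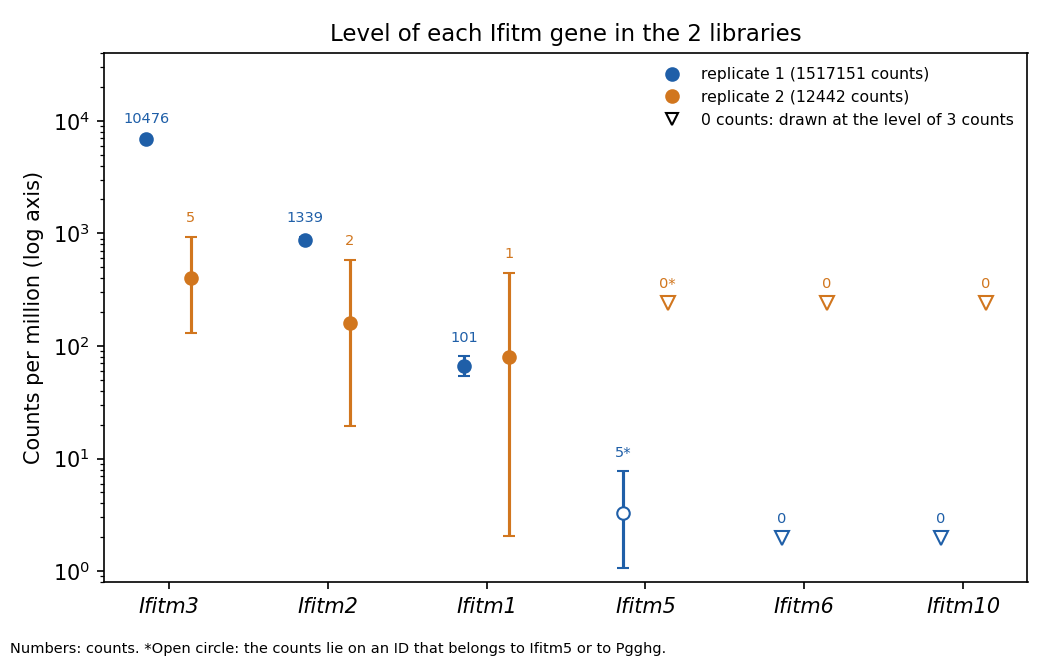
Level of each Ifitm gene in counts per 1000000 (CPM) on a log axis, with replicate 1 in blue and replicate 2 in orange. Bars are exact 95% intervals of counting error, numbers are counts, triangles stand at the level of 3 counts for genes at 0, and the open circle marks the 5 counts that lie on an ID of Ifitm5 or Pgghg. In replicate 1 the levels step down from 6905 CPM for Ifitm3 to 883 for Ifitm2 and 66.6 for Ifitm1, and the intervals of these 3 genes do not overlap there, while in replicate 2 they do.

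At least 3 counts were thus found for 3 of the 6 members in replicate 1, where 15.9% of all genes and 32.6% of protein-coding genes reached that number. In replicate 2, 1 member, Ifitm3, reached 3 counts, against 2.1% of all genes and 3.77% of protein-coding genes. Ifitm1, Ifitm2 and Ifitm3 had at least 1 count in both libraries, which held for 3.78% of all genes. Since the genes were chosen with these values known, nothing is read from the difference.

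Within the family the counts were divided unevenly. In replicate 1, the 11916 counts on Ifitm IDs were 87.9% Ifitm3 (87.3% to 88.5%), 11.2% Ifitm2 (10.7% to 11.8%) and 0.848% Ifitm1 (0.691% to 1.03%). In replicate 2, 5 of 8 counts were on Ifitm3, a share of 62.5% with an interval from 24.5% to 91.5% that includes the share in replicate 1. Ifitm3 thus led in both libraries, though 8 counts do not fix the order of the members in replicate 2. The counts of Ifitm3 were 7.82 times those of Ifitm2 in replicate 1 (7.39 to 8.29) and 2.5 times in replicate 2 (0.409 to 26.3).

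The whole family reached 7854 CPM (7714 to 7996) in replicate 1 and 643 CPM (278 to 1267) in replicate 2, a mean of 4249 CPM ± 5099 (SD, n = 2). The spread between the libraries was therefore larger than their mean. Every Ifitm count in both libraries lay on a protein accession, a kind of ID that took 86.1% of all counts in replicate 1 but 48.8% in replicate 2. Whether this difference between the libraries bears on the lower Ifitm level in replicate 2 was not tested.

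**Figure D2:**
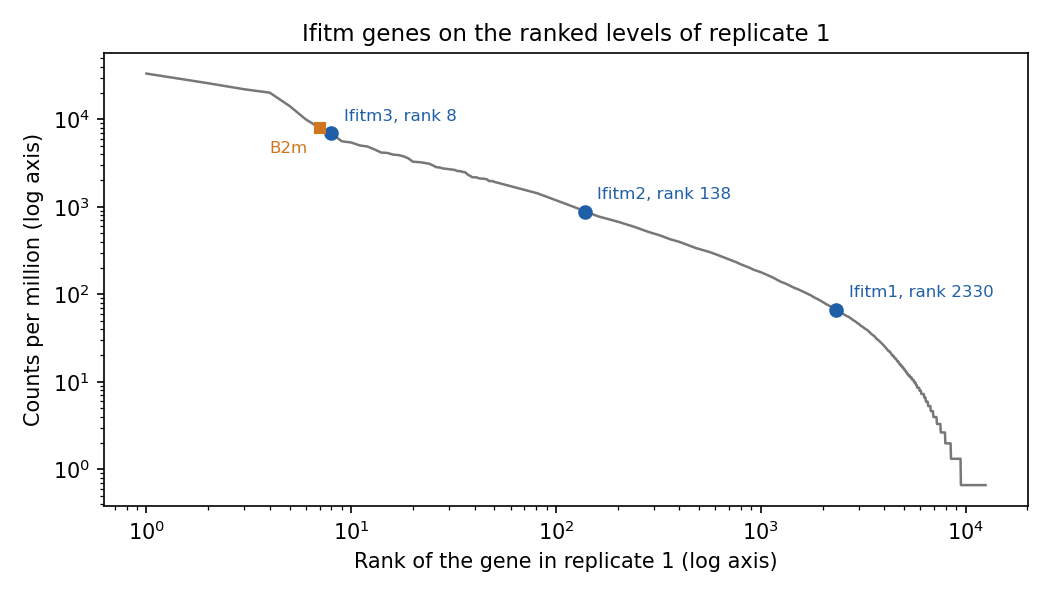
Genes of replicate 1 ordered by their counts, with the rank on the horizontal axis and CPM on the vertical axis, both on log scales. The line is the level of all genes with a count, circles are Ifitm3, Ifitm2 and Ifitm1 at ranks 8, 138 and 2330, and the square is B2m, one rank above Ifitm3.

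How much of each gene could be counted at all differed between the members. Reads on an exonic base that belongs to several IDs were largely not counted: 3 of the 10296 Ensembl IDs that have no such base to themselves were counted in replicate 1, and 0 in replicate 2. Of the Ensembl IDs with bases to themselves, 6552 of 64759 were counted in replicate 1. Ifitm1 and Ifitm3 have 1 ID each, and none of their 1094 and 678 exonic bases overlaps another ID. Overlap does not cover reads that match elsewhere. Of the windows of 50 bases, 5.02% for Ifitm1 and 10.0% for Ifitm3 also occurred in another gene. Ifitm2 has 387 of 655 bases to itself and shares the other 268 with Gm45717. For Ifitm6, 278 of 905 bases are covered by 1 ID only, and for Ifitm10, 1356 of 4789.

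The 69-base run that Ifitm2 has in common with Ifitm3 lies wholly within the bases that Ifitm2 shares with Gm45717. A read inside this run therefore would not be counted for Ifitm2. Of the 289 windows of 50 bases made only of bases particular to Ifitm2, none occurred in Ifitm3, and 75 occurred in the gene models Gm11951, Gm45308 or Gm8865. When counts were divided by bases covered by 1 ID only, Ifitm3 stood at 10184 CPM per kilobase and Ifitm2 at 2281 CPM per kilobase in replicate 1. The ratio of the pair was then 4.47, against 7.56 per kilobase of all exons. Ifitm3 took rank 6 and Ifitm2 rank 23 on this scale, among 44139 genes with at least 200 such bases.

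**Figure D3:**
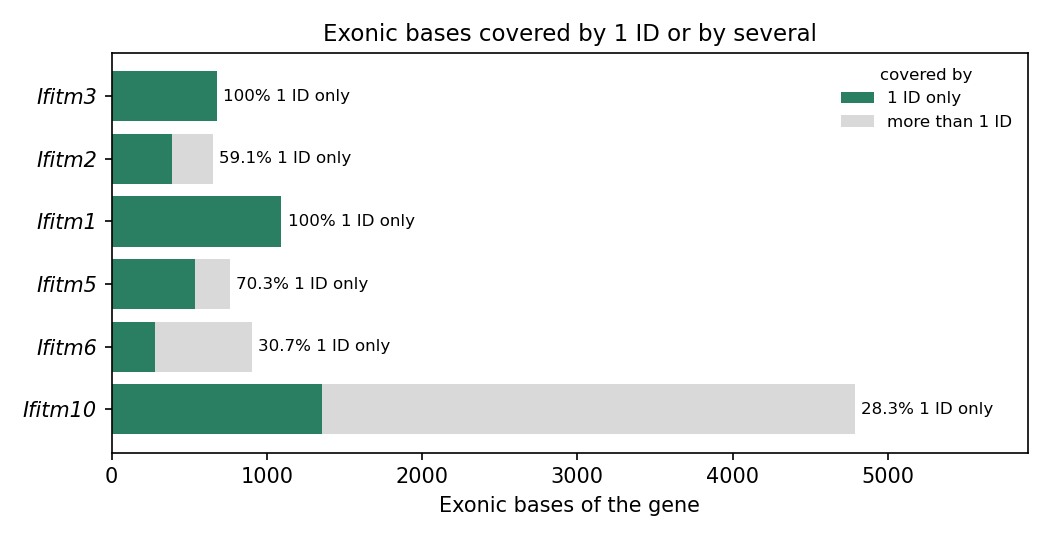
Exonic bases of each Ifitm gene, split into bases covered by 1 ID only (green) and bases covered by more than 1 ID (grey). Ifitm3 and Ifitm1 are green throughout, Ifitm2 is green for 59.1% of its bases and Ifitm6 and Ifitm10, which were at 0 counts, for 30.7% and 28.3%. The green of Ifitm10 includes bases of transcripts whose only possible ID is A0A1B0GT66, which was not assigned to Ifitm10.

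Genes around the cluster had 0 or 1 count on the IDs placed in them. Pgghg before Ifitm5 and Gm17387 after Ifitm6 were at 0 in both libraries, as were the pseudogene Gm7514 between Ifitm1 and Ifitm3 and the more distant B4galnt4, while the pseudogene Gm45299 had 1 count in replicate 1. Little of the flanking genes could be counted, since Gm17387 has 72 exonic bases under 1 ID only and no Pgghg transcript has more than 157, so these values do not show that they were silent. Ifitm6, the gene nearest to Ifitm3, was at 0.

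**Figure D4:**
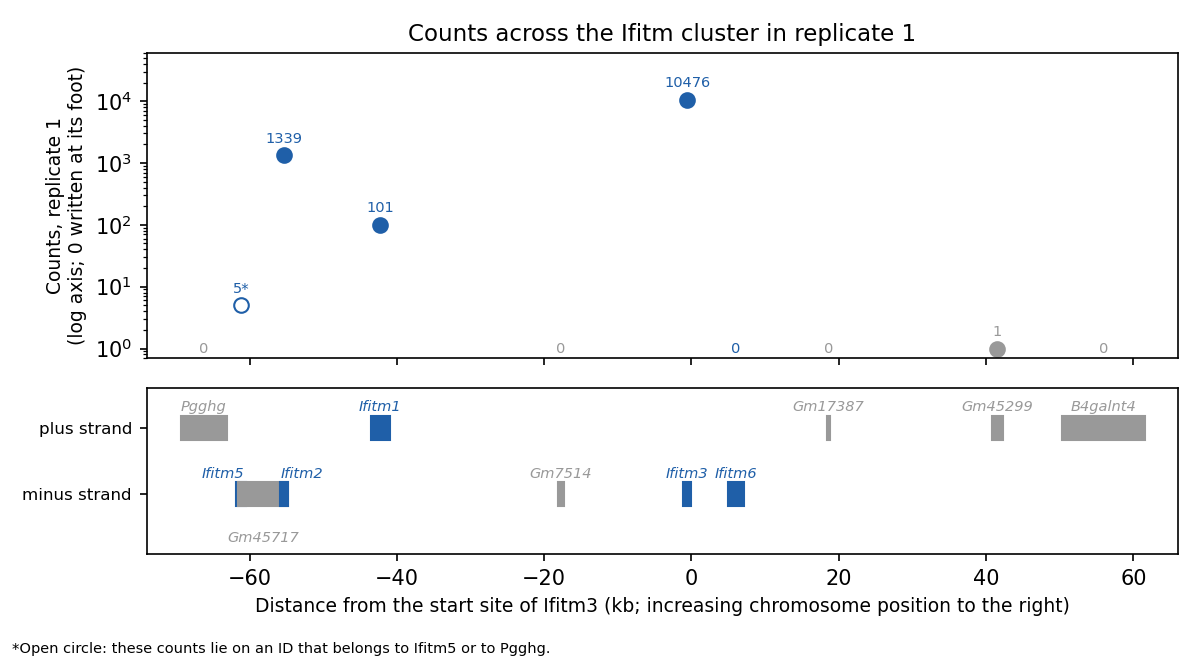
Counts in replicate 1 (log axis, upper panel) and positions of the genes on both strands (lower panel) against the distance from the start site of Ifitm3 in kb, with Ifitm genes in blue and other genes in grey. Counts of 1339, 101 and 10476 mark Ifitm2, Ifitm1 and Ifitm3, the open circle marks the 5 counts of Ifitm5 or Pgghg, and the genes on either side stand at 0 or 1.

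Interferon acts through the receptors Ifnar1 and Ifnar2 or Ifngr1 and Ifngr2, the kinases Jak1, Jak2 and Tyk2, and factors that include Stat2 and Irf9, which act at the interferon-stimulated response element (ISRE). The ISRE core, 2 GAAA repeats with any 2 bases between them, was searched on both strands from 250 bases before to 50 bases after each RefSeq start site. It matched once at Ifitm2 and at 2 positions at Ifitm3, and not in the windows of Ifitm1, Ifitm5, Ifitm6 and Ifitm10. Among all 32851 promoters of the same length 3.44% held a match. The matches are printed in capitals with 10 bases on either side, in GRCm38.p6 and along the strand of the match.
Ifitm2, 46 bases before the start, chr7:140955988-140956017: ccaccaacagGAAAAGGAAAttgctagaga
Ifitm3, 2 bases after the start, chr7:141010723-141010752: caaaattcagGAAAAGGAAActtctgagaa
Ifitm3, 19 bases after the start, chr7:141010706-141010735: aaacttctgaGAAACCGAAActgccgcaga

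The members with a match, Ifitm2 and Ifitm3, were those with the most counts. Since the family was chosen by its counts, nothing is read from this, and a link was not tested. A GAS element, TTCNNNGAA, the motif of the interferon gamma response, matched once at Ifitm3, where it overlaps the second ISRE match, and once at Ifitm6, against 8.30% of all promoters. A match shows only that these letters are present, and no match says nothing about binding.

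Of 13 genes of interferon receptors and signalling, 9 had at least 3 counts in replicate 1 and none in replicate 2, where 32.6% and 3.77% of protein-coding genes did. Jak1 had the most, with 1691 counts in replicate 1 and 2 counts in replicate 2. Jak2 had 393 counts in replicate 1 and Irf1, a factor that is itself induced by interferon, 152. The receptor chain Ifngr1 had 9 counts, and Irf2, which opposes Irf1, had 14. Tyk2, Stat2 and Irf9 were at 0 counts in both libraries. Between 20.6% and 80.0% of the exonic bases of these 13 genes are covered by 1 ID only, and the share was 21.4% for Tyk2, 25.8% for Stat2 and 42.7% for Irf9, so their 0 does not show that they were silent.

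Of 26 other interferon-stimulated genes, 15 had at least 3 counts in replicate 1 and 1 had in replicate 2, beside the same 32.6% and 3.77% of protein-coding genes. Irgm1, a GTPase that acts against intracellular pathogens, led with 446 counts in replicate 1. Zc3hav1, which binds viral RNA, had 278 counts, with 89 more on IDs that could also belong to another gene, and the GTPase Gbp2 had 265. Ifit2 had 134 counts and Oas1a, a sensor of double-stranded RNA, had 87 in replicate 1 and 1 in replicate 2. Oas3, of the same family as Oas1a, had 2 counts in replicate 1 and 3 in replicate 2. All 26 genes together held 1707 counts in replicate 1, fewer than the 10476 of Ifitm3 alone. Of the 26 genes, 9 have under 50% of their exonic bases under 1 ID, against 100% for Ifitm3. The 2 numbers are therefore not measured alike. The median gene of this list had 19 counts in replicate 1, where the median of all genes was 0.

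The genes with levels most like Ifitm3 over the 2 libraries, by distance in log2(CPM + 1), were Rps3a1, B2m and Rpl32. The light chain of MHC class I, B2m, stood at 12110 counts in replicate 1 and at 8 in replicate 2. The ribosomal protein genes Rps3a1 and Rpl32 had 8510 and 5992 counts in replicate 1 and 4 and 5 counts in replicate 2. With 2 libraries the measure says little more than that these genes were high in replicate 1 and lower in replicate 2.

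RNA of genes listed as partners or modifying enzymes of IFITM3 was counted in replicate 1 in nearly every case. Of 11 such genes, 10 had at least 3 counts there and 1 in replicate 2, against 32.6% and 3.77% of protein-coding genes. Vcp, an ATPase of protein turnover, had 884 counts and Vapa, a membrane contact protein that IFITM3 binds, had 604. For Zdhhc20, one of the enzymes that attach palmitate to IFITM3, replicate 1 gave 446 counts and replicate 2 gave 3. The protease Zmpste24 had 339 and the lipid carrier Osbp had 213 counts in replicate 1. The ubiquitin ligase Nedd4, which marks IFITM3 for degradation, had 2, with 41.1% of its exonic bases under 1 ID only.

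Among 8 other genes of the CD225 domain, the membrane domain that the IFITM proteins share, none had 3 counts in either library. That number was reached by 32.6% of protein-coding genes in replicate 1 and by 3.77% in replicate 2. Prrt1 and Syndig1l had 1 count each in replicate 1, and Tmem91 had 2 in replicate 2. The share of exonic bases under 1 ID ran from 2.91% for Prrt2 to 100%, so a 0 does not show that a gene was silent.

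The germ cell markers were almost without counts, although the libraries are labelled as differentiated FGSCs. Of 15 markers, none reached 3 counts in replicate 1, beside 32.6% of protein-coding genes. Kit had 1 count there and the other 14 were at 0. In replicate 2, 1 marker reached 3 counts, beside 3.77% of protein-coding genes. This was Tfap2c, a factor of early germ cells, with 5 counts, and the other 14 were at 0. Ddx4, Dazl, Dppa3, Prdm1, Pou5f1, Stra8 and Sycp3 were at 0 in both libraries. In the paper, RT-PCR found Stra8 and Sycp3 expressed after RA treatment of FGSCs, and immunofluorescence found Stra8. The same RT-PCR panel, with a lane of differentiated FGSCs, also held Oct4 (Pou5f1), Mvh (Ddx4) and Fragilis. The paper's text does not state the result for these genes. The summed level of the 15 markers was 0.659 CPM in replicate 1 and 402 CPM in replicate 2, against 6905 and 402 CPM for Ifitm3. Of the exonic bases of the 7 genes named at 0, between 7.52% for Sycp3 and 69.8% for Pou5f1 are under 1 ID only. The share was 8.43% for Ddx4, 23.1% for Dazl and 25.2% for Stra8. The 0 of the 7 genes therefore does not show that they were absent. Markers with larger shares were at 0 as well. Besides Pou5f1 these were Figla with 66.3%, Lin28a with 85.2% and Prdm14, with all of its bases under 1 ID. Which of the 15 markers premeiotic cells would express was not tested.

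Markers of other cell types that such a culture may hold were read beside Ifitm3. Per the paper, FGSCs were kept on inactivated STO feeder cells, derived from mouse embryos, and were differentiated over granulosa cells. Whether feeder cells entered these libraries was not tested. Of 12 fibroblast markers, 6 had at least 3 counts in replicate 1 and 3 in replicate 2, beside 32.6% and 3.77% of protein-coding genes, with a summed level of 2916 CPM and 1286 CPM. The matrix genes Dcn, Col1a2 and Col1a1 had 2281, 910 and 401 counts in replicate 1, the receptor Pdgfra had 726 and Col3a1 had 58. In replicate 2 Col1a2 had 6, Fn1 5 and Col3a1 3 counts. Vim, Thy1 and Fn1 had 1 count each in replicate 1, and Lum, Pdgfrb and Fap were at 0 in both libraries. The share of exonic bases under 1 ID was 58.4% for Vim, 62.1% for Thy1, 56.1% for Fap and 100% for Lum. It was 30.8% for Fn1 and 2.3% for Pdgfrb, whose 0 does not show that it was absent.

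Granulosa cell markers reached 3 counts for 6 of 15 genes in replicate 1, a share near the 32.6% of protein-coding genes, and for none in replicate 2, at summed levels of 478 CPM and 321 CPM. Kitl, the ligand of Kit, had 453 counts in replicate 1, the activin antagonist Fst had 229, Inhba 26, Wt1 10 and Hsd17b1 4. The defining markers Foxl2, Amh, Nr5a1 and Cyp19a1 were at 0 in both libraries, and Fshr had 0 and 2 counts. Foxl2 has 99.6% of its exonic bases under 1 ID.

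Osteoblast markers stood at a summed 3.95 CPM in replicate 1 and 0 in replicate 2. Of 8 such genes 1, Runx2 with 4, had at least 3 counts in replicate 1 and none in replicate 2. Of protein-coding genes 32.6% and 3.77% did. Sp7, Ibsp, Dmp1 and Alpl were at 0. The share of exonic bases under 1 ID was 100% for Ibsp and Dmp1 and 76.6% for Alpl. For Sp7 it was 20.9%, so its 0 does not show that it was absent. Of 8 myeloid markers that could be placed, 1 reached 3 counts in replicate 1, Lyz2 with 65, and none in replicate 2, beside the same shares. Ptprc was at 0 in both libraries. Between 7.09% and 100% of the exonic bases of these 8 genes are under 1 ID, with 56.2% for Ptprc, so a 0 does not show absence. The summed level of the myeloid markers was 43.5 CPM in replicate 1 and 80.4 CPM in replicate 2. The part of any of these cell types in the Ifitm3 counts was not tested. A larger share of Ifitm3-expressing cells and more Ifitm3 RNA in each cell cannot be told apart in these bulk libraries.

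**Figure D5:**
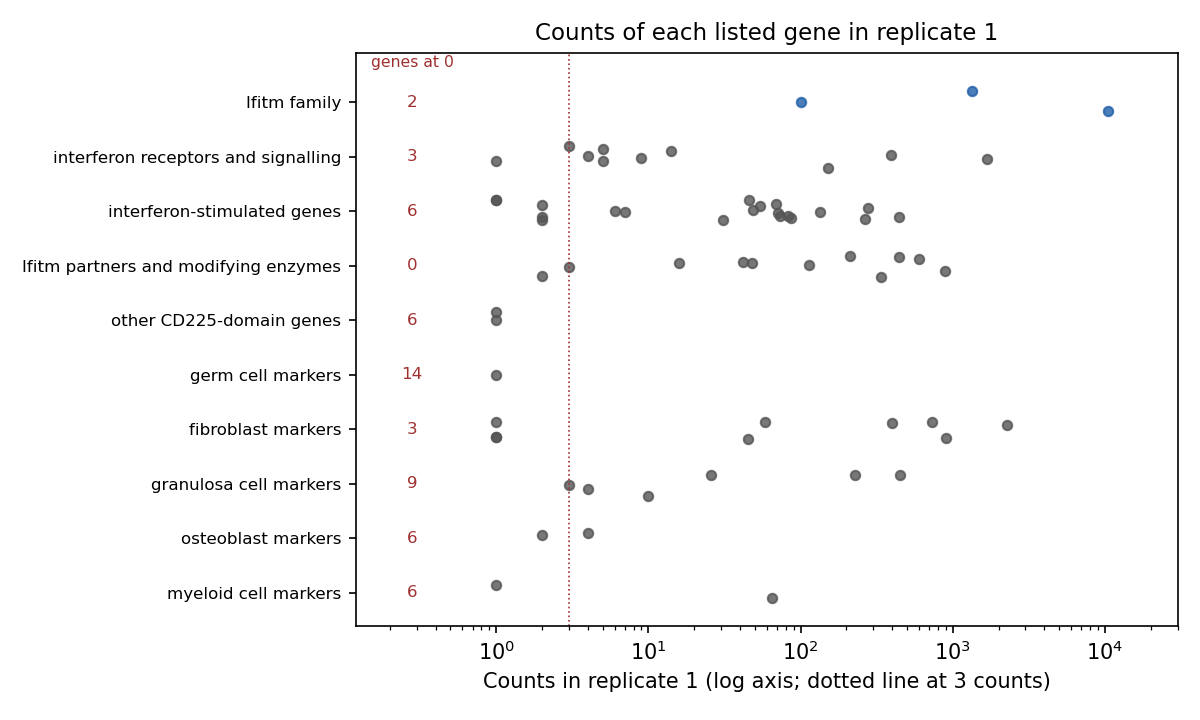
Counts in replicate 1 of each gene of the lists, 1 point per gene on a log axis, with a dotted line at 3 counts and the number of genes at 0 written at the left. Ifitm3 has the most counts of all listed genes, and among germ cell markers 14 of 15 genes are at 0, while 6 of the 12 fibroblast markers lie between 45 and 2281 counts.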

How the data were processed

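Counts of 2 RNA-seq libraries of differentiated FGSCs were analysed. Per the submitters' processing notes, the authors trimmed reads with Trim Galore, aligned them to mm10 with HISAT2 2.2.1 and counted them with featureCounts. The paper's methods instead describe TopHat and Cufflinks. The deposited files hold whole-number counts for every ID, not normalized, and the annotation used for counting is not given in the sources used here. IDs are Ensembl transcripts or protein accessions without gene names. The gene of an accession is inferred from its place among 75055 Ensembl IDs found in GENCODE M21 (GRCm38), listed by chromosome and start. Order alone placed 49436 of 53245 accessions in 1 gene. With 50% of the Ensembl IDs hidden, 18539 of 24316 tested were placed in 1 gene, 18535 of them rightly. Listing order left Q99J93 between Ifitm2 and Gm45717. Since Gm45717 has no exonic base of its own, Q99J93 was taken as Ifitm2, which also fixed Ifitm1, Ifitm3 and Ifitm6 (49442 accessions in all). That step was not covered by the check on hidden IDs.

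Levels are counts per 1000000 counts of a library. The members and lists were chosen with earlier results of these data known. Named were all members, up to 5 genes of each other list with most counts in replicate 1 and up to 3 in replicate 2 among those with at least 3, defining markers at 0, flanking genes and the 3 genes nearest Ifitm3. B4galnt4, Gm7514, Gm45299, Nedd4, Prdm14, Lin28a, Figla, Prrt2 and genes with 1 or 2 counts were added after their values were seen. No test was run, since both libraries share 1 condition. A gene of the signalling list is not reported here. Placement was tested on simulated lists. Primer sequences came from the study's primer table, transcripts from GENCODE and promoters from RefSeq GRCm38.p6. Python 3.11.15, numpy 2.4.6, scipy 1.17.1, biopython 1.88 and matplotlib 3.10.9 were used. Alternatives covered the replicates, the kinds of ID, the total and the length scale.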

Additional observations from a re-analysis of the deposited data

How the results depend on the processing

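Ifitm3 was the leading member under every alternative that gave a share. Its share of Ifitm counts over both libraries was 87.9%. It ranged from 62.5% to 87.9% when either replicate was left out, the lower value being that without replicate 1. It was 81.3% per kilobase of bases covered by 1 ID, an alternative added after the data were seen. The number of members with at least 3 counts was 3, and it ranged from 1 to 3 when either replicate was left out. It was 0 with only Ensembl transcript IDs, under which no share could be computed because no Ifitm count was left. With O88728 counted as Ifitm5, also added later, it was 4. The family level of 4249 CPM ranged from 643 CPM without replicate 1 to 7854 CPM without replicate 2, was 0 CPM with only Ensembl transcript IDs, and lay between 3969 and 7796 CPM under its other alternatives. The SD between the libraries exceeds their mean, so it cannot tell whether these values differ from 4249 CPM. The cause of these shifts was not tested, apart from the kinds of ID, where the accessions that hold every Ifitm count were removed. No paired analysis was possible because there was no second group to pair with. Depth limits every statement on replicate 2, where 3 counts equal 241 CPM.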

Other observations

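The interferon lists hold genes that differ in the share of exonic bases covered by 1 ID only. Of 17 interferon-stimulated genes with at least 50% of their exonic bases under 1 ID, 12 had at least 3 counts in replicate 1, and of 9 below that share, 3 did. For interferon receptors and signalling the numbers were 4 of 4 and 5 of 9. Over all protein-coding genes the shares were 40.1% and 21.7%. Stat2, Tyk2, Irf9, Mx1, Mx2, Oasl1, Rsad2 and Ifi27, all at 0 in replicate 1, lay below 50%, whereas Oasl2, also at 0 there, lay above it at 51.9%. These genes were looked up after their counts were seen.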
